A study of Mus musculus with 12 samples.

Results

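The monocyte and macrophage genes are 34 genes given by name and looked up by symbol in the array annotation. Of these, 32 had a probe set listed under that symbol alone, out of 18194 genes that did, and each was read from its probe set with the highest mean. In all, 23 were bright enough to be tested, with a mean over all arrays at or above the median of all probe sets (6.76 on the scale of log2(signal + 32)). A further 9, Maf, Msr1, Mrc1, Fcgr1, Itgam, C1qa, C1qb, C1qc and Trem2, lay below that level, and Cd63 and Lilrb4a had no probe set of their own name. Counts below are over the 23 tested genes, not over all 34.

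The data were 12 one-colour Affymetrix arrays of mouse blood cells. The groups were controls, which kept Stat5a and Stat5b, and knockouts of both genes (labelled Stat5 KO), each with arrays whose titles end in a plus or a minus sign. Each of the 4 groups had 3 arrays. The protocols describe plus arrays as given CMP and minus arrays as given none, without saying what CMP is, and in most titles CMP stands in the name of plus and minus arrays alike. The arrays are therefore called plus and minus here. The labels do not name the strain, the age, the driver of the deletion or the sorted cell type. Nor do they say whether arrays of a group are separate animals. The p-values of the fit therefore measure only spread among these arrays, once differences between the naming sets defined next are removed. Titles were written in 3 ways, which define naming sets A, B and C here, and each set holds 1 array of each group. One array, the minus knockout of set B, is called a control in its treatment protocol and a knockout in its title, which was followed. Its Stat5a and Stat5b signals, which are part of the knockout range given below, lay below those of every control array. In the same set the source label of the plus knockout opens with another number than the other 3.

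Monocytes are circulating myeloid cells that arise from bone marrow progenitors and can become macrophages, cells that engulf particles and digest them in lysosomes. They sense microbes through Toll-like receptors, the co-receptor CD14 and lectins such as Dectin-1, and antibody-coated particles through Fc receptors. Activating Fc receptors signal through the adaptor FcRγ, and receptors such as TREM2 through the related adaptor DAP12. Lysosomal cathepsins and legumain cut the proteins that are taken up. STAT5A and STAT5B carry signals of cytokine receptors, among them that of GM-CSF, a growth factor of this lineage.

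Stat5a signals were 659.7 to 1436.5 in the 6 control arrays and 28.9 to 90.1 in the 6 knockout arrays, and Stat5b signals were 1036 to 2177 and 7.28 to 82.8, with no overlap for either gene. Array medians of the deposited signal ranged from 59.7 to 114. As signs of myeloid blood cells, the M-CSF receptor gene Csf1r ranged from 3997 to 25920.0 and the granule enzyme gene Mpo from 15540.0 to 56980.0. Of 11 T and NK cell markers 4 passed the level filter, Nkg7 (742 to 5535), Zap70, Prf1 and Cd8a, while Cd3d, Cd3e and Cd3g did not. Of 10 B cell markers 3 passed, Ighm (2171 to 17890.0), Cd79b (169 to 1083) and Vpreb1, while Cd79a, Ms4a1 and Pax5 did not. Of 36 further monocyte and macrophage genes 22 passed, Adgre1 (124 to 478) and Cd163 among them, while Marco, Vsig4, Mertk and Siglec1 did not. The log2 ratio of 3′ to 5′ signal of beta-actin, read here as a sign of RNA quality, was 4.30 to 5.78 in set B and 0.25 to 2.14 in sets A and C. Within each set and genotype the plus array had the higher ratio, in 6 of 6 comparisons. These are measurements of bulk RNA, so fewer cells of a type and less RNA per cell cannot be told apart.

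In controls, 8 of the 23 monocyte and macrophage genes rose in the plus arrays and 1 fell, so 39.1% were called against 22.1% of all 10583 genes tested (10.6% up and 11.6% down). In knockouts 11 rose and 1 fell, or 52.2% against 18.8% of all genes (9.03% up and 9.72% down). The genes that rose were Lgals3, Gpnmb, Cd14, Clec7a, Fcgr2b, Ctsl and Tlr4 in both genotypes, Fcgr3 in controls, and Lgmn, Tlr2, Ctsb and Fcer1g in knockouts. F13a1 fell in both. Among the genes that rose, Gpnmb and, by a small margin, Tlr4 passed the level filter only through their plus arrays, as given below. The 7 genes that rose in both made up 87.5% of those called up in controls and 63.6% of those called up in knockouts. No matching overlap over all genes is given here, so these shares do not set the list apart. The median difference over the 23 genes was 0.75 in controls and 0.63 in knockouts, beside -0.02 and -0.06 over all genes tested. At an unadjusted p under 0.05 there were 14 of 23 in each genotype, beside 36.4% and 33.9% of all genes.

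Differences are in log2(signal + 32) with the standard error of the limma fit, n = 3 arrays per group, and p-values are adjusted over all 10583 genes by the Benjamini-Hochberg method with a threshold of 0.05. The fit held the naming set as a block. Without that block 1 gene was called in each genotype, Gpnmb in controls and Ctsl in knockouts, and adding the beta-actin ratio to the model left 5 (Lgals3, Gpnmb, Cd14, Fcgr3 and F13a1) and 4 (Lgals3, Gpnmb, Lgmn and F13a1). In controls the count of 9 became 5 without the minus array of set A, 4 without the minus array of set B, 5 without the plus array of set C and 4 without all of set C. In knockouts the count of 12 became 7 without the minus array of set B, 7 without the minus array of set C, 6 without set A and 3 without set C, and 6 with the minus knockout of set B counted as a control.

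**Figure D1:**
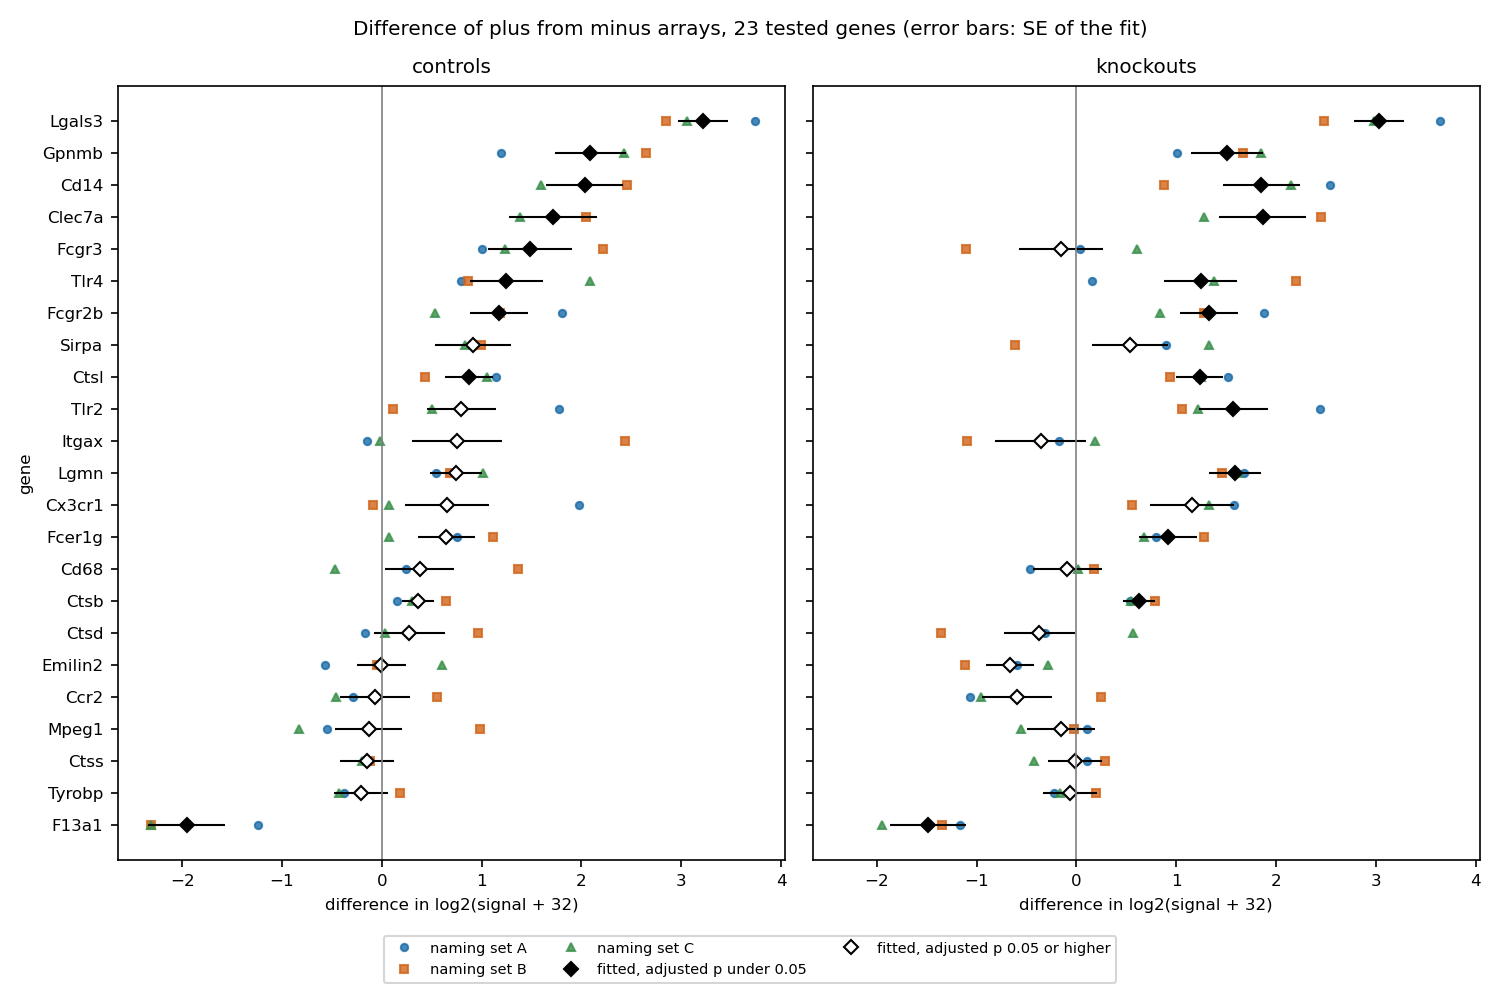
Difference in log2(signal + 32) between plus and minus arrays for the 23 tested monocyte and macrophage genes, in controls (left) and knockouts (right). Diamonds are fitted differences with their SE, filled where the adjusted p was under 0.05, and coloured points are the differences within naming sets A, B and C. Lgals3 lies highest in both panels, at 3.22 and 3.03, and F13a1 lowest, at -1.96 and -1.49.

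The promoter sequences of 5 of these genes are shown as examples, chosen after their values were seen. They are those of 4 genes of lectin and lysosomal function that rose in at least 1 genotype (Lgals3, Gpnmb, Ctsl and Lgmn) and of F13a1, which fell. They span 250 bases before to 50 bases after a transcription start in RefSeq on GRCm38.p6, 5′ to 3′ on the strand of the gene, and capitals mark matches to the motifs named below. The table held a promoter for 25 of the 34 genes.
Lgals3, chr14:47373610-47373909, + strand: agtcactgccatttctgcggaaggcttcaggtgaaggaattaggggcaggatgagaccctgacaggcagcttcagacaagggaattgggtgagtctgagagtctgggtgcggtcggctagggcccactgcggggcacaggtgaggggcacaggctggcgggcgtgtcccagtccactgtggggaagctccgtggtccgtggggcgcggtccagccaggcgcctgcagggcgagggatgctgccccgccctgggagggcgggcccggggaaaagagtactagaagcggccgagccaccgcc
Gpnmb, chr6:49036268-49036567, + strand: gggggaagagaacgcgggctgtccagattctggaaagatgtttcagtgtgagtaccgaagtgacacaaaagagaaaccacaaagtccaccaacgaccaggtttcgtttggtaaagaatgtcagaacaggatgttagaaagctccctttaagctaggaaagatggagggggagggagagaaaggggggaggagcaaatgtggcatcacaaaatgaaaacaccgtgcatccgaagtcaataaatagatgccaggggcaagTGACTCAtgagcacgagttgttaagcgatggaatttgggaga
Ctsl, chr13:64370471-64370770, - strand: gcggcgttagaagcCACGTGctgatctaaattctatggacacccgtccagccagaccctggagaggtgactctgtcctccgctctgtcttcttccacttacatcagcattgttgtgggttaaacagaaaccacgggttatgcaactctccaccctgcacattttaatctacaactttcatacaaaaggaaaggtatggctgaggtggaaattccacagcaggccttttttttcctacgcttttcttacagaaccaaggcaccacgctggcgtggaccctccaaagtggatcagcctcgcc
Lgmn, chr12:102439043-102439342, - strand: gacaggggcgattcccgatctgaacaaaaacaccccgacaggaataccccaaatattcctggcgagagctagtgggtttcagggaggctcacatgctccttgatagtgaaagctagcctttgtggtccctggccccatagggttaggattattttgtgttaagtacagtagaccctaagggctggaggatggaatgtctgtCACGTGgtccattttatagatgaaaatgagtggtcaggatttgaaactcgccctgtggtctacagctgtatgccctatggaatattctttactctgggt
F13a1, chr13:37049164-37049463, - strand: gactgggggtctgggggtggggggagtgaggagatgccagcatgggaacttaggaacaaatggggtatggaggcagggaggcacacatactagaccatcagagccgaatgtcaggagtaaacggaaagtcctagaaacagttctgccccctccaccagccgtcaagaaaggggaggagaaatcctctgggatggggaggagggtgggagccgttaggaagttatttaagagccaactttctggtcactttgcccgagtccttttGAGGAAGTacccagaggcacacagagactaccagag

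The 4 motifs below were searched on both strands, with no overlap between matches of different motifs in the 5 windows. The E-box CACGTG, bound by MITF and TFE family factors, occurred 236 bases before the start of Ctsl and 49 before that of Lgmn, and in Ctsd. It occurred in 7.15% of the 32851 promoters of the table. The AP-1 motif TGANTCA lay 8 bases after the start of Gpnmb and also occurred in Cd68, Itgax and Trem2 (7.81% of all promoters). The PU.1 motif GAGGAAGT lay 14 bases after the start shown for F13a1, and also occurred in Ctss and C1qc (3.2% of all promoters). The STAT motif TTCNNNGAA occurred in Emilin2 and Fcgr1 among the 25 genes, beside 8.3% of all promoters. Lgals3 had none of these letters in its window. Lgmn and F13a1 each have another listed start, whose window held none of the 4 motifs. A match describes letters only.

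Among the lectin and lysosomal genes, Lgals3 rose in both genotypes. It encodes galectin-3, a lectin that binds sugar chains outside and inside the cell. Its signals were 109.6, 3857 and 956 in the control minus arrays of sets A, B and C and 1858, 28021 and 8217 in the control plus arrays. In the knockouts they were 139, 3714 and 811 in the minus arrays and 2094, 20797 and 6614 in the plus arrays. Every plus array was above the minus array of its own set and genotype, although the groups overlapped, with set B high and set A low throughout. The difference was 3.22 ± 0.25 in controls (adjusted p = 2.33e-05) and 3.03 ± 0.25 in knockouts (adjusted p = 3.25e-05), and it was called in all 15 fits that left out 1 array or 1 naming set.

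Gpnmb encodes a membrane glycoprotein of late endosomes and lysosomes. Control minus arrays, from set A to set C, gave signals of 16.1, 47.1 and 43.7, and control plus arrays 78.3, 462 and 375. Knockout minus arrays had 19.3, 20.3 and 46.0, and knockout plus arrays 71.1, 134 and 248. Plus and minus arrays did not overlap in either genotype. The difference was 2.09 ± 0.36 in controls (adjusted p = 0.00224) and 1.51 ± 0.36 in knockouts (adjusted p = 0.0145). All minus signals were below the lowest array median, and the size of the difference changed with the added constant. It was 2.85 and 1.43 in controls and 2.30 and 0.91 in knockouts with constants of 1 and 100. The call in controls was lost without set C (adjusted p = 0.0606). In knockouts it was lost without the minus array of set B or C, the plus array of set C or all of set C (adjusted p = 0.0596 to 0.175). Its other probe set, with a mean below the level filter, gave 0.73 ± 0.27 and 0.40 ± 0.27.

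Among the lysosomal proteases, Ctsl (cathepsin L) rose in both genotypes. Signals in controls were 1119, 1046 and 1332 in minus and 2505, 1419.6 and 2789.9 in plus arrays, in the order of the sets. The corresponding knockout signals were 1089, 1486 and 1194 without and 3176, 2874 and 2889 with the plus sign. Every plus array lay above every minus array in both genotypes. The difference was 0.87 ± 0.24 in controls (adjusted p = 0.0218) and 1.24 ± 0.24 in knockouts (adjusted p = 0.00508). The call in controls held in 8 of 15 leave-out fits and was lost without the plus or minus array of set A, the minus array of set B, the plus or minus array of set C, set A or set C (adjusted p = 0.0612 to 0.204). In knockouts it was lost without set A or set C (0.0724 to 0.0781). The other probe set of Ctsl, below the level filter, gave -0.02 ± 0.34 and -0.25 ± 0.34. With the mean of both probe sets the differences were 0.43 and 0.49, and neither passed (adjusted p = 0.149 and 0.11).

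Lgmn encodes legumain, which cuts after asparagine. Its signals were 36.9, 91.7 and 122 in the control minus arrays of sets A, B and C and 68.2, 167 and 279 in the control plus arrays. Among knockouts, the minus arrays gave 61.1, 75.4 and 176 and the plus arrays 267, 262 and 607. In the knockouts every plus array was above every minus array, while in controls the groups overlapped. The difference was 1.58 ± 0.26 in knockouts (adjusted p = 0.00213), lost without set C (adjusted p = 0.0713). In controls it was 0.75 ± 0.26 and did not pass (adjusted p = 0.0589), although the plus array was higher in all 3 sets, by 0.54, 0.68 and 1.01. Ctsb (cathepsin B) had signals of 3368, 3957 and 4086 in the minus knockouts and 4914, 6860.3 and 5994 in the plus knockouts, which did not overlap. It had 2806, 3402 and 4078 and 3120.1, 5313 and 5036 in the control minus and plus arrays, which did. It rose by 0.63 ± 0.16 in knockouts (adjusted p = 0.0185) and was at 0.36 ± 0.16 in controls (adjusted p = 0.118).

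The Ctsb call in knockouts was lost without the plus array of set A, the minus array of set B or C, set A or set C (adjusted p = 0.0627 to 0.177). Its 4 dimmer probe sets disagreed in knockouts, at -0.53 ± 0.47, 0.14 ± 0.25, 1.07 ± 0.44 and 0.88 ± 0.34, and the mean of all 5 gave 0.43, which did not pass (adjusted p = 0.139). Neither of the other cathepsins was called. Ctsd (cathepsin D) was at 0.28 ± 0.35 in controls and -0.37 ± 0.35 in knockouts, and Ctss (cathepsin S) at -0.15 ± 0.27 and -0.01 ± 0.27. Their adjusted p-values were 0.612, 0.494, 0.735 and 0.983. Ctsd signals ranged from 1145 to 6939.9 and were lowest in the plus knockout of set B, and Ctss signals ranged from 2368 to 9599.

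Of 48 other lysosomal genes tested, a list written from textbook knowledge, 4 rose and 5 fell in controls and 7 rose and 5 fell in knockouts. Their medians were 0.04 and -0.05. Npc1, which exports cholesterol from lysosomes, rose in controls (1.39 ± 0.23), and Lipa, the acid lipase, rose in knockouts (1.09 ± 0.22). Gusb, a glucuronidase (-0.82 ± 0.17 and -0.90 ± 0.17), and Gm2a, a ganglioside activator (-1.10 ± 0.26 and -1.30 ± 0.26), fell in both genotypes. Shares of 18.8% and 25% of this list were called.

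Pattern recognition genes formed the next group. Cd14 encodes the co-receptor that hands lipopolysaccharide to Toll-like receptor 4. Control minus arrays, from set A to set C, gave signals of 89.6, 125 and 402, and control plus arrays 468, 832 and 1279.7. In the knockouts they were 118, 118 and 235 in the minus arrays and 839.9, 242 and 1152 in the plus arrays. Plus and minus arrays did not overlap in either genotype, though the plus knockout of set B lay just above the highest minus knockout. The difference was 2.03 ± 0.39 in controls (adjusted p = 0.00395), called in all 15 leave-out fits. It was 1.85 ± 0.39 in knockouts (adjusted p = 0.00779), lost without set A or set C (adjusted p = 0.0566 to 0.115).

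Clec7a encodes Dectin-1, a receptor for fungal beta-glucans. Signals in controls were 266, 718 and 1437 in minus and 949.5, 3056 and 3802 in plus arrays, in the order of the sets. Knockout minus arrays had 798, 509 and 1055, and knockout plus arrays 2989, 2924 and 2611. In knockouts the groups did not overlap, while in controls the plus array of set A lay below the minus array of set C. The difference was 1.72 ± 0.44 in controls (adjusted p = 0.0166) and 1.87 ± 0.44 in knockouts (adjusted p = 0.0138). In controls the call was lost without the minus array of set A or B, the plus array of set B or C, set B or set C (0.0563 to 0.0919 as adjusted p). In knockouts it was lost without the plus array of set A, the minus array of set B or C, or set B (0.0536 to 0.0789).

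Tlr4, the lipopolysaccharide receptor, rose in both genotypes. Its signals were 78.9, 118 and 69.6 in the control minus arrays of sets A, B and C and 159.7, 241 and 401 in the control plus arrays. The corresponding knockout signals were 73.0, 48.4 and 79.7 without and 85.0, 338 and 258 with the plus sign. The groups did not overlap in either genotype, though the plus knockout of set A was within a few units of the highest minus knockout. The difference was 1.25 ± 0.37 in controls (adjusted p = 0.0313) and 1.24 ± 0.37 in knockouts (adjusted p = 0.0358). It held in 8 and 9 of 15 leave-out fits. In controls it was lost without the plus array of set A, either array of sets B and C, set A or set C (adjusted p = 0.0525 to 0.357). In knockouts it was lost without either array of sets B and C, set B or set C (0.0959 to 0.202). A probe set of almost equal brightness gave 0.99 ± 0.30 in controls and 0.13 ± 0.30 in knockouts. The mean of all its probe sets gave 0.69 in controls (adjusted p = 0.0275) and 0.58 in knockouts, which did not pass (adjusted p = 0.0592).

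Tlr2, the receptor for bacterial lipopeptides, had signals of 320.2, 863 and 352 in the minus and 1872, 1827 and 861 in the plus knockouts. In controls they were 255, 1081 and 484 and 951, 1169 and 701. The groups overlapped in both genotypes, where the minus array of set B was high. Tlr2 rose by 1.57 ± 0.35 in knockouts (adjusted p = 0.0101), lost without set C (adjusted p = 0.0712). In controls it was at 0.80 ± 0.35 (adjusted p = 0.119).

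Of 19 other genes of the Toll-like receptor pathway, 4 rose in controls and 3 in knockouts, and none was called down. This was 21.1% and 15.8% of the list. Irf5, a transcription factor downstream of these receptors, rose by 1.27 ± 0.27 and 1.25 ± 0.27, and Tlr13, a receptor for bacterial ribosomal RNA, by 0.79 ± 0.26 and 1.44 ± 0.26. Irak2, a kinase of the pathway, rose in controls (1.17 ± 0.30, adjusted p = 0.0181), and Cd180, a relative of Tlr4, in knockouts (0.71 ± 0.20, adjusted p = 0.0321).

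**Figure D2:**
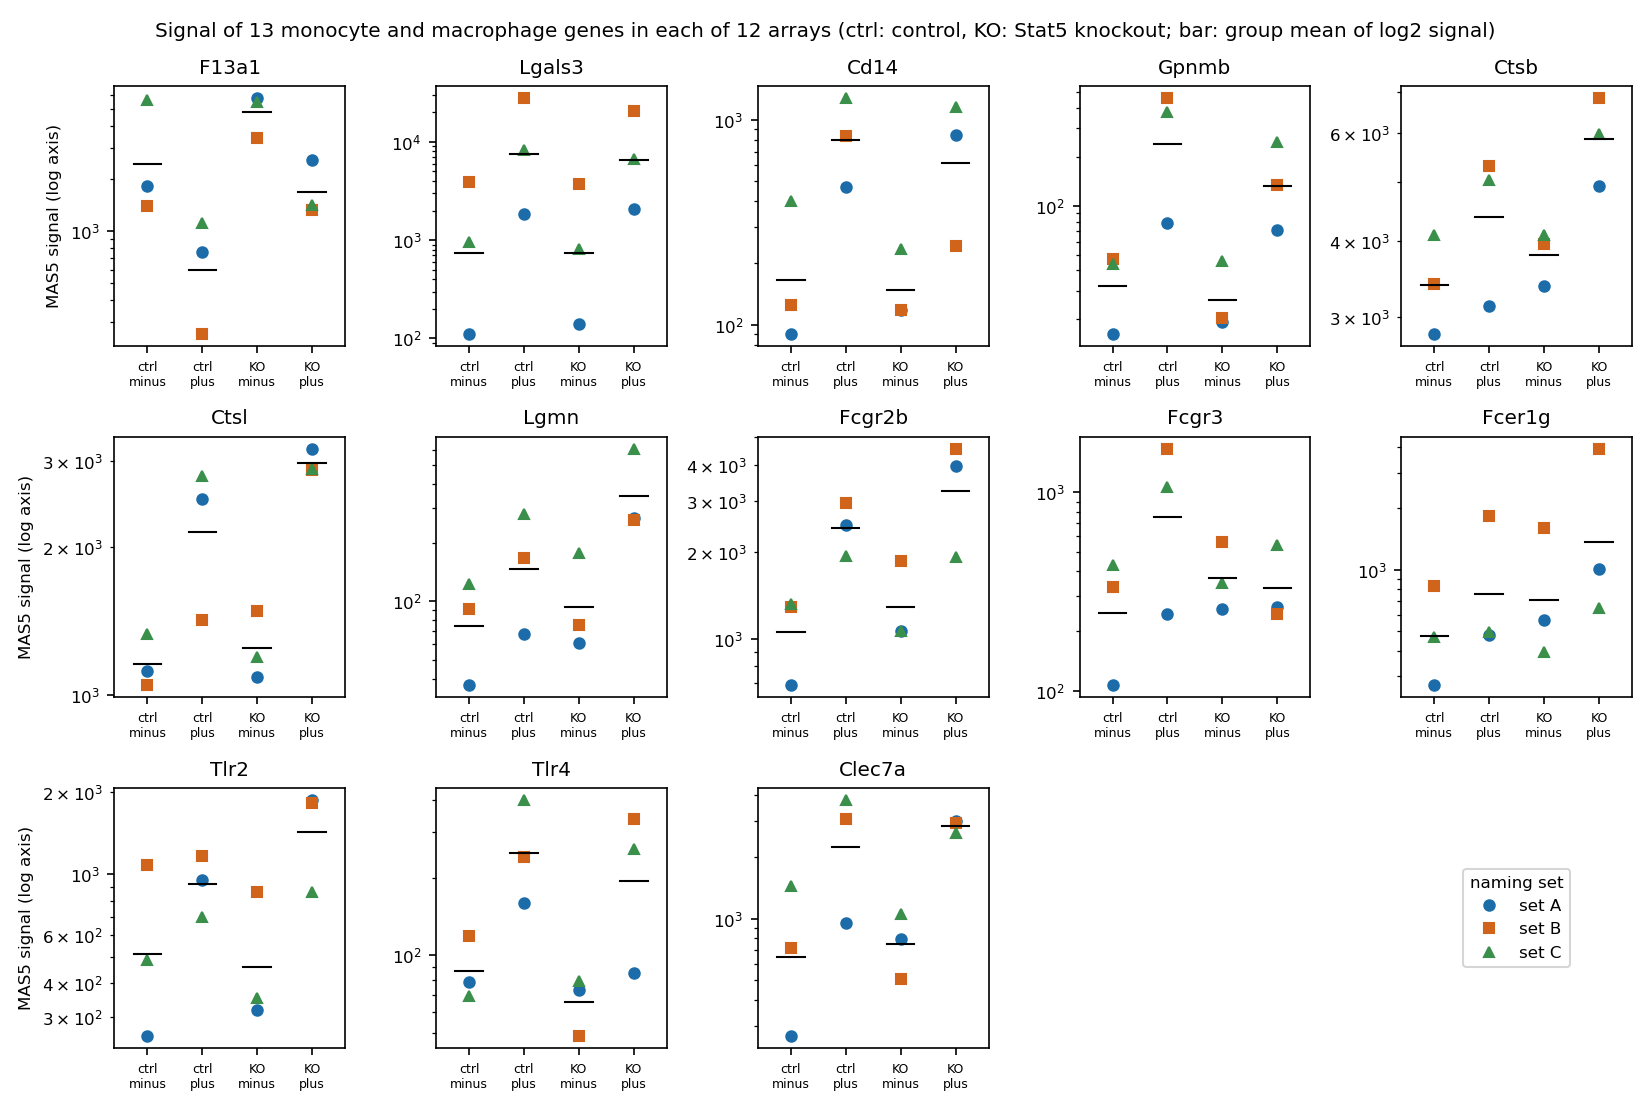
MAS5 signal, on log axes that differ between panels, of the 13 monocyte and macrophage genes called between plus and minus arrays in at least 1 genotype. Each point is 1 array, shaped and coloured by naming set, and bars are group means of the log2 signal. Lgals3 plus arrays lie above the minus arrays of their own set, and F13a1 plus arrays lie below.

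Of the Fc receptor genes, Fcgr2b encodes the inhibitory receptor for IgG. Control minus arrays, from set A to set C, gave signals of 687, 1286 and 1323, and control plus arrays 2472, 2957 and 1933. Among knockouts, the minus arrays gave 1062, 1866 and 1062 and the plus arrays 3986, 4561 and 1917. Plus and minus arrays did not overlap in either genotype. The difference was 1.17 ± 0.29 in controls (adjusted p = 0.0141) and 1.33 ± 0.29 in knockouts (adjusted p = 0.00959). In controls the call was lost without either array of set A, the minus array of set B or set A (0.0555 to 0.12 as adjusted p), and in knockouts without set A (0.0766). The other 4 of its 5 probe sets, from bright to dim, gave 0.97 ± 0.28, 1.31 ± 0.39, 0.52 ± 0.36 and -0.18 ± 0.15 in controls and 1.14 ± 0.28, 1.31 ± 0.39, 1.16 ± 0.36 and -0.26 ± 0.15 in knockouts. With the mean of all probe sets the difference was 0.76 in controls, which did not pass (adjusted p = 0.0699), and 0.93 in knockouts (adjusted p = 0.0388). With the beta-actin ratio in the model it was 0.57 and 0.68 (adjusted p = 0.303 and 0.305). Fcgr2b and Fcgr3 are similar in sequence, so signals of either may include the other.

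Fcgr3, an activating receptor for IgG, had signals of 106, 332 and 433 in the control minus arrays and 245, 1658 and 1062 in the control plus arrays. In knockouts they were 259, 562 and 349 and 265, 245 and 546. The groups overlapped in both genotypes, and the plus arrays of sets B and C were the highest of the controls. Fcgr3 rose by 1.48 ± 0.42 in controls (adjusted p = 0.0259) and was at -0.16 ± 0.42 in knockouts (adjusted p = 0.823). The difference between the genotypes was itself tested and did not pass, at -1.64 ± 0.59 (adjusted p = 0.954, unadjusted p = 0.0171). By set, from A to C, it was -0.97, -3.32 and -0.63. The call in controls was lost without the minus array of set A, B or C, the plus array of set B or C, or set C (adjusted p = 0.0532 to 0.133).

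Fcer1g encodes FcRγ, the adaptor of activating Fc receptors. Signals in controls were 270.2, 836 and 468 in minus and 479, 1843 and 495 in plus arrays, in the order of the sets. In the knockouts they were 567, 1594 and 395 in the minus arrays and 1006, 3920.0 and 652 in the plus arrays. Set B was high in every group, and the groups overlapped in both genotypes. The difference was 0.92 ± 0.29 in knockouts (adjusted p = 0.0457) and 0.65 ± 0.29 in controls (adjusted p = 0.129). The call in knockouts held in 3 of 15 leave-out fits, those without the minus control of set B or C or the plus knockout of set C, and was lost in the others (adjusted p = 0.0514 to 0.17). Tyrobp, which encodes the adaptor DAP12, was at -0.21 ± 0.27 and -0.06 ± 0.27, with signals of 1044 to 11162. Sirpa, the receptor of the signal from CD47 that restrains engulfment, was at 0.91 ± 0.38 in controls (adjusted p = 0.107) and 0.53 ± 0.38 in knockouts (adjusted p = 0.351). Its control groups did not overlap, at 431 to 705 in minus and 844 to 1278 in plus arrays.

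Of 21 other genes of Fc receptor and ITAM signalling, a route through phosphorylated tyrosine motifs of such adaptors, 6 rose in each genotype and none fell (28.6% of the list in each). Among them were the C-type lectin receptor genes Clec4n (3.11 ± 0.57 in controls), Clec4e (2.17 ± 0.38 and 2.53 ± 0.38) and Clec4d (1.30 ± 0.26 and 2.30 ± 0.26). Cd300a, an inhibitory receptor, rose by 0.92 ± 0.23 and 1.05 ± 0.23.

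Of the remaining genes, which include markers of circulating monocytes, F13a1 alone was called. It encodes the A subunit of coagulation factor XIII, found in monocytes and platelets, and it fell. Its signals were 1823, 1396 and 5625 in the control minus arrays of sets A, B and C and 753, 255 and 1108 in the control plus arrays. Knockout minus arrays had 5808, 3416 and 5524, and knockout plus arrays 2567, 1326 and 1403. Plus arrays lay below minus arrays with no overlap in either genotype. The difference was -1.96 ± 0.38 in controls (adjusted p = 0.00462), called in all 15 leave-out fits. In knockouts it was -1.49 ± 0.38 (adjusted p = 0.0205), lost without the minus array of set A or B, the plus array of set C, set A or set C (0.056 to 0.0934 as adjusted p).

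Ccr2, the chemokine receptor that takes monocytes into tissue, was at -0.06 ± 0.35 in controls and -0.59 ± 0.35 in knockouts (adjusted p = 0.916 and 0.259), with signals of 339 to 2309. Cx3cr1, the fractalkine receptor of patrolling monocytes, was at 0.65 ± 0.42 and 1.16 ± 0.42 (adjusted p = 0.295 and 0.0768). Its signals in knockouts were 789, 899 and 642 in minus and 2424, 1338 and 1665 in plus arrays, which did not overlap, while those of controls did. In 7 of the 23 genes the control groups did not overlap, and in 11 of 23 the knockout groups did not, beside 25.1% and 23.6% of all genes tested.

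Mpeg1, the pore-forming perforin-2 of phagocytes, was at -0.13 ± 0.34 and -0.16 ± 0.34, and Cd68, a glycoprotein of macrophage lysosomes, at 0.38 ± 0.35 and -0.09 ± 0.35. Their adjusted p-values were 0.816, 0.779, 0.461 and 0.875. Itgax, the integrin chain CD11c, was at 0.76 ± 0.45 in controls, where set B alone was higher (2.43, against -0.14 and -0.02 in sets A and C), and at -0.36 ± 0.45 in knockouts. Emilin2, an extracellular matrix glycoprotein, was at -0.0044 ± 0.24 in controls and -0.67 ± 0.24 in knockouts (adjusted p = 0.0757).

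Of 22 further monocyte and macrophage genes tested, 3 rose and 2 fell in controls and 3 rose and 3 fell in knockouts, with medians of -0.03 and -0.17. Adam8, a metalloprotease of activated leukocytes, rose by 2.25 ± 0.36 and 2.67 ± 0.36. Cd163, the scavenger receptor for haemoglobin, fell (-1.52 ± 0.27 and -0.96 ± 0.27). Apoe fell in knockouts (-3.17 ± 0.67), most in set B, at -1.80, -6.11 and -1.58 from set A to set C. Of 15 integrin and adhesion genes, 5 rose and 2 fell in controls and 5 rose in knockouts, with Icam1, a ligand of leukocyte integrins, at 1.88 ± 0.23 and 1.77 ± 0.23 and the integrin chain Itgb3 at 1.60 ± 0.30 and 1.48 ± 0.30. Shares of these lists called were 22.7% and 27.3%, and 46.7% and 33.3%.

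**Figure D3:**
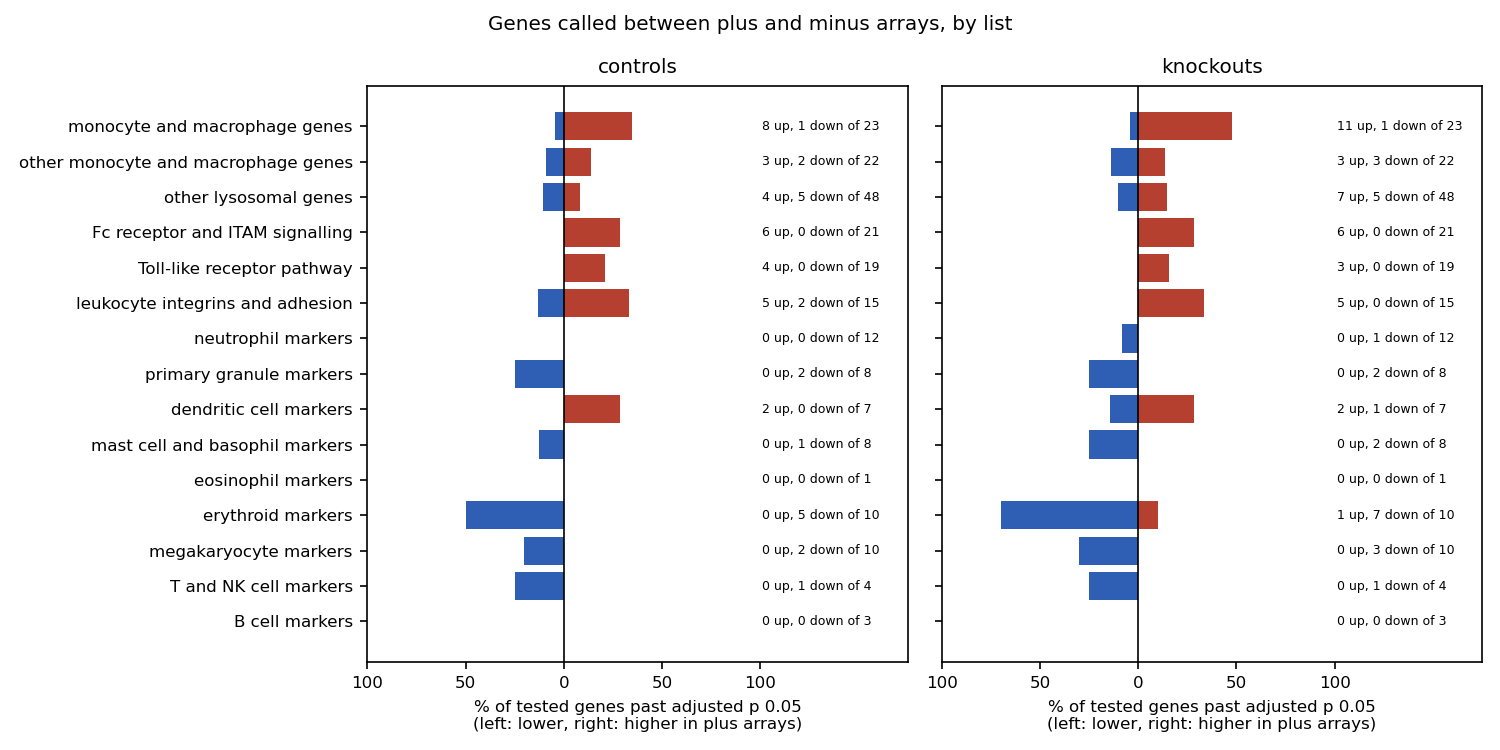
Share of the tested genes of each list with an adjusted p under 0.05 between plus and minus arrays, higher in plus arrays to the right and lower to the left, in controls and knockouts. The monocyte and macrophage genes had 8 up and 1 down of 23 in controls and 11 up and 1 down in knockouts, and erythroid markers 5 and 7 down of 10.

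Markers of other blood cells were counted in the same way. Beside them, 22.1% of all genes were called in controls (11.6% down) and 18.8% in knockouts (9.72% down). Erythroid markers fell in 5 of 10 tested genes in controls and in 7 of 10 in knockouts, where 1 rose (50% and 80% called). Their summed signal was 21146 to 61346 in control minus arrays and 14928 to 24532 in control plus arrays, and 19605 to 36619 and 7106 to 18182 in knockouts. The haemoglobin gene Hba-a1 was below the level filter. Neutrophil markers had 0 of 12 called in controls and 1 down in knockouts, with sums of 19089 to 149500.0, 11449 to 164320.0, 18565 to 96574 and 12743 to 36060.0 in the 4 groups in the same order. All 12 were lower in plus than in minus knockouts in the fit, with a median of -1.14. Those with the smallest p, Camp, Mmp9, Mmp8 and Ltf, fell most in set B. From set A to set C, Camp was at -1.13, -2.12 and -1.15 and Mmp9 at -0.44, -2.96 and -0.74. Mmp8 was at -0.45, -2.58 and -0.77 and Ltf at -0.75, -4.47 and -0.33. Primary granule markers fell in 2 of 8 in each genotype (25%), and mast cell and basophil markers in 1 and 2 of 8 (12.5% and 25%). Megakaryocyte markers fell in 2 and 3 of 10 (20% and 30%). Of 7 dendritic cell markers tested, Cd83 and Batf3 rose in controls, and Cd83 and Cd74 rose and H2-Ab1 fell in knockouts. The T and NK cell list, with Cd3d, Cd3e and Cd3g below the filter, had 1 of 4 called down, Nkg7, a granule protein (-2.02 ± 0.24 and -1.96 ± 0.24). The B cell list had none of 3 called and the eosinophil list 0 of 1. The part of these shifts in the results on the monocyte and macrophage genes was not tested.

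Knockouts were then compared with controls, to ask which of these genes differ with the loss of Stat5a and Stat5b. None of the 23 genes was called by limma in the minus arrays or in the plus arrays. Of all 10583 genes, 0.0189% were called in each comparison, 2 genes that were Stat5a and Stat5b. At an unadjusted p under 0.05 there were 6 of 23 in the minus arrays and 10 of 23 in the plus arrays, beside 2.36% and 9.81% of all genes. The lowest adjusted p among the 23 was 1 in the minus arrays and 0.47 in the plus arrays. The medians over the 23 genes were 0.22 and 0.42, beside -0.01 and -0.04 over all genes. Among markers of other cells none was called. In the minus arrays 10 of 10 erythroid genes were lower in knockouts (median -0.47), as were 9 of 10 megakaryocyte genes (-0.54) and 9 of 12 neutrophil genes (-0.15). Higher in knockouts there were 7 of 8 primary granule genes (0.34), 7 of 7 dendritic cell genes (0.37) and 3 of 3 B cell genes (0.40). In the plus arrays 12 of 12 neutrophil genes were lower (median -0.90), with 9 of 10 erythroid (-0.75) and 9 of 10 megakaryocyte genes (-0.56), while 7 of 8 primary granule genes (0.33), 4 of 7 dendritic cell genes (0.05) and 3 of 3 B cell genes (0.39) were higher. The neutrophil genes with the smallest p in the plus arrays, Cd177, Ltf, Ltb4r1 and Cxcr2, differed most in set B. From set A to set C, Cd177 was at -0.47, -4.54 and -0.20 and Ltf at -0.69, -4.77 and -0.0055. Ltb4r1 was at 0.43, -2.71 and -0.82 and Cxcr2 at -0.02, -2.32 and -0.53. The part of these markers of other cells in the differences of the 23 genes was not tested.

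In the minus arrays the 6 genes at an unadjusted p under 0.05 were Tyrobp, Cd68, Mpeg1, Ctss, F13a1 and Ccr2, each higher in the knockouts. Ccr2 was at 0.78 ± 0.35, while its dimmer probe sets disagreed, at 0.54 ± 0.35, -0.27 ± 0.41 and 0.33 ± 0.41. Tyrobp was at 0.87 ± 0.27 (unadjusted p = 0.00764), Cd68 at 0.90 ± 0.35 and Mpeg1 at 0.87 ± 0.34. Mpeg1 signals were 1918, 1271 and 5718 in the control minus arrays of sets A, B and C and 3968, 3531 and 6268 in the knockout minus arrays. Cd68 signals were 202, 121 and 604 and 458, 477 and 559. In both genes the knockout exceeded the control of its set in sets A and B, while the control of set C lay among or above the knockouts, so that the groups overlapped.

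The naming sets differed in this way across the list. Without the plus sign, 20 of 23 genes were higher in the knockout of set A, with 15 for set B and 8 for set C, and medians of 0.61, 0.49 and -0.15, beside -0.03, -0.01 and -0.02 over all genes. In the plus arrays 19, 14 and 12 of 23 were higher, with medians of 0.71, 0.44 and 0.05, beside 0.012, -0.144 and 0.006 over all genes. Of all genes, 45.9%, 49.3% and 45.5% were higher in the minus arrays and 51.7%, 43.5% and 51.2% in the plus arrays. For F13a1 the differences, from set A to set C, were 1.65, 1.27 and -0.03 in minus and 1.73, 2.24 and 0.33 in plus arrays. For Tyrobp they were 1.27, 1.28 and 0.08, and 1.41, 1.29 and 0.34. Both comparisons use separate arrays but the same sets.

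In the plus arrays the smallest unadjusted p-values belonged to Emilin2, Lgmn, F13a1 and Tyrobp. Emilin2 signals were 2080.0, 3433 and 2962 in the control and 1483, 1183 and 1383 in the knockout plus arrays, with no overlap, and the difference was -1.02 ± 0.24 (unadjusted p = 0.00123, adjusted p = 0.47). Lgmn was higher in knockouts by 1.06 ± 0.26 (adjusted p = 0.47), in 3 of 3 sets. With array weights its adjusted p was 0.0327, the 1 call among the 23 genes in this comparison over all alternatives tried. F13a1 was at 1.43 ± 0.38, at 255 to 1108 in controls and 1326 to 2567 in knockouts, which did not overlap. Cx3cr1 was at 1.26 ± 0.42, with 0.82, 2.06 and 0.92 from set A to set C. Fcgr3 was at -1.14 ± 0.42, with 0.10, -2.61 and -0.92, so set A went the other way. In both genes the groups overlapped. The others at an unadjusted p under 0.05 were Ctss (0.83 ± 0.27), Mpeg1 (0.85 ± 0.34), Fcer1g (0.83 ± 0.29) and Ctsb (0.42 ± 0.16), each higher in knockouts in the fit. Of these, Mpeg1 alone had groups that did not overlap. The arrays of the 2 genotypes were apart in 0 of 23 genes in minus and 4 of 23 in plus arrays, beside 4.32% and 5.66% of all genes.

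**Figure D4:**
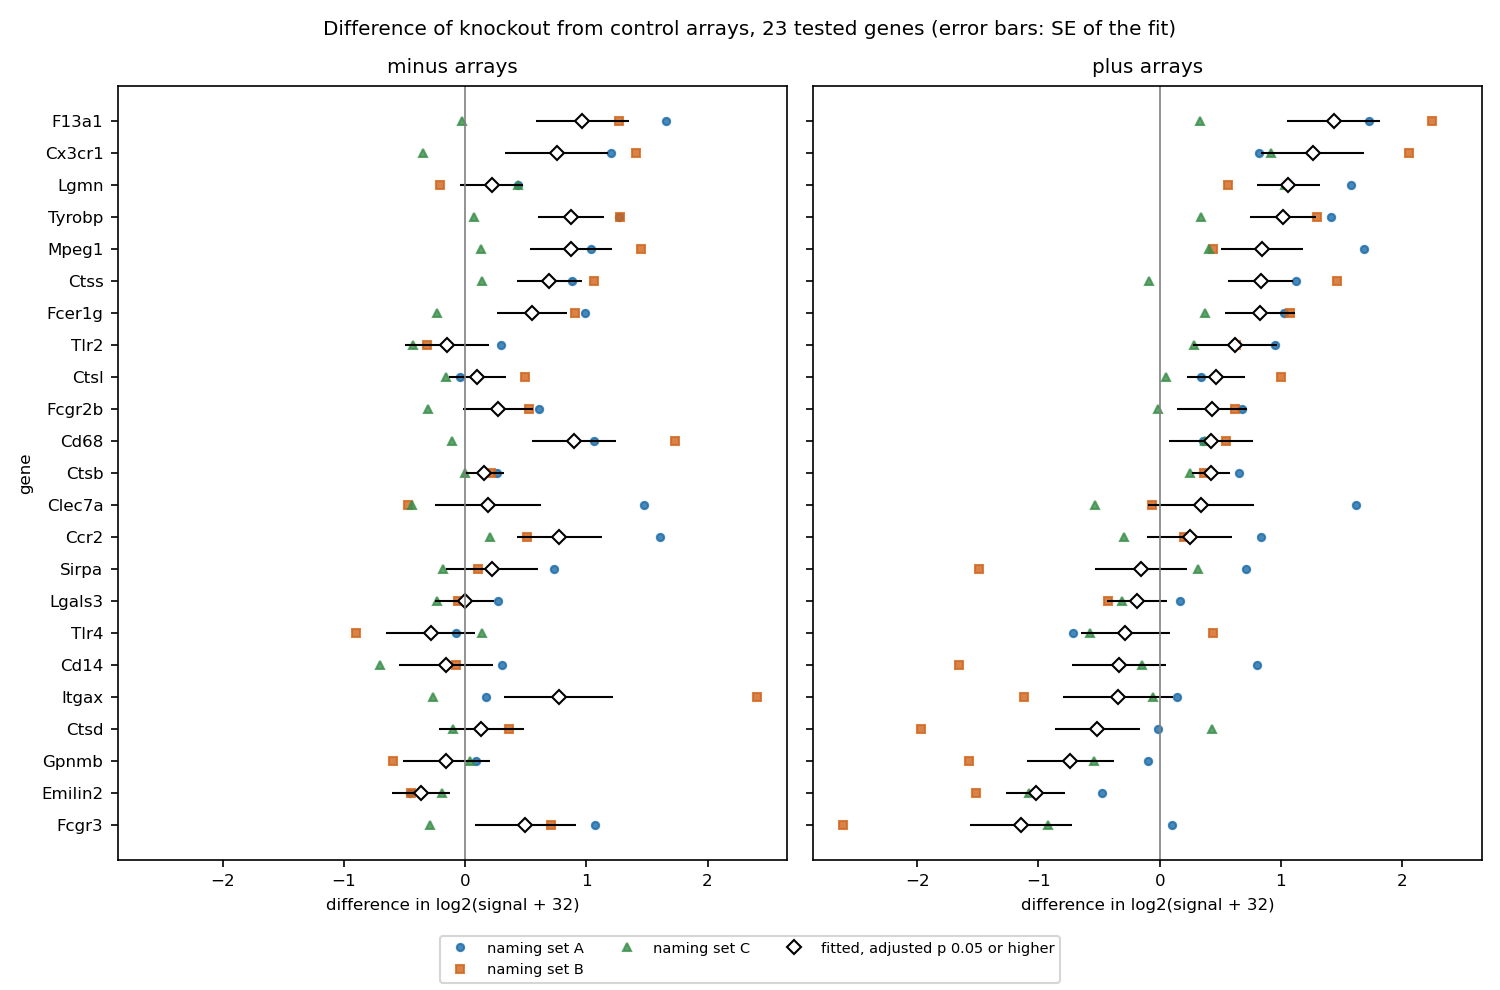
Difference in log2(signal + 32) between knockout and control for the 23 tested genes, in minus (left) and plus arrays (right). Diamonds are fitted differences with their SE, none with an adjusted p under 0.05, and coloured points are the differences within naming sets. In minus arrays the points of set C lie near 0 for F13a1, Tyrobp, Mpeg1 and Cd68, at -0.03, 0.08, 0.13 and -0.10, where those of sets A and B lie between 1.04 and 1.74.

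The difference of the plus response between knockouts and controls was tested directly. By limma, 0 of the 23 genes and 0% of all genes passed, and 2 of 23 had an unadjusted p under 0.05, Fcgr3 as given above and Lgmn (0.84 ± 0.37, unadjusted p = 0.0414), beside 2.11% of all genes. The genes called in knockouts and not in controls were therefore not shown to differ between the genotypes. The difference was 0.77 ± 0.49 for Tlr2, 0.26 ± 0.22 for Ctsb and 0.27 ± 0.41 for Fcer1g, each with an adjusted p of 0.954. For Lgals3 it was -0.19 ± 0.35 and for F13a1 0.47 ± 0.54.

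The 9 genes below the level filter were not tested. C1qa signals ranged from 2.63 to 7.69 and C1qc from 1.46 to 11.6 over the 12 arrays, and C1qb, the other chain of complement C1q, which macrophages make, from 4.85 to 113. Trem2, a lipid-sensing receptor that signals through DAP12, ranged from 10.8 to 128. Mrc1, the mannose receptor, ranged from 30.9 to 98.5, Fcgr1, the high-affinity receptor for IgG, from 46.4 to 108, and Itgam, the integrin chain CD11b, from 21.5 to 117. Msr1, a scavenger receptor, had its highest signal, 314, in the control plus array of set B, with 7.71 as the lowest. Maf, a transcription factor of macrophages, ranged from 5.20 to 304. Maf lay just below the filter at a mean of 6.71, and Gpnmb just above it at 6.87.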

How the data were processed

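RNA of 12 samples was hybridised to Affymetrix mouse arrays of 1 colour. The deposited intensity values, on a linear scale, came from MAS5, per the submitters' processing notes. The version and detection calls are not given in the sources used here. All 45101 values per array were above 0, and each array had a trimmed mean of 500 (2% trimmed at each end), so the deposited scaling was kept. Of the probe sets, 34958 had 1 symbol, 932 several and 9211 none in the platform annotation, and 34754 of the first matched the GRCm38.p6 gene table by gene number. Precision is limited by the number of arrays.

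From these, log2(signal + 32) was computed, 1 probe set kept per gene (the highest mean) and genes with a mean below 6.76 left out. One limma fit (3.58.1, R 4.3.3, eBayes with a trend) over 10583 genes modelled the 4 groups with the naming set as a term, leaving 6 residual and 5.78 prior degrees of freedom. The set was kept as a block because deviations from group means correlated at 0.41 to 0.77 for 18 same-set pairs, and at -0.64 to 0.28 for 36 pairs that differed in set and group. The code was tested on simulated data. The genes, lists and tests were chosen with earlier results of these data known. All 34 genes are accounted for. Those called in at least 1 contrast are given array by array, and up to 4 genes with the smallest p are named per other list. Alternatives covered the constant, level filter, scaling, probe sets, block, arrays in the fit, array weights, beta-actin ratio, the array with conflicting labels, and leaving out each array or naming set. Promoters were read from the RefSeq table of GRCm38.p6.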

Additional observations from a re-analysis of the deposited data

How the results depend on the processing

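The counts of called monocyte and macrophage genes were 9 in controls and 12 in knockouts between plus and minus arrays, and none of the called genes changed sign under any alternative tried. Without the naming set as a replicate block 1 gene was called in controls and 1 in knockouts. Adding the beta-actin ratio to the model left 5 and 4, and with the minus knockout of set B as a control 10 and 6. Leaving out single arrays or naming sets gave 4 to 11 in controls and 3 to 12 in knockouts. The other alternatives, which were constants of 1 and 100, no level filter, a filter at the 60th percentile, arrays centred on their medians, quantile normalization, the mean of all probe sets, the 6 compared arrays alone and array weights, gave 7 to 13 in controls and 9 to 15 in knockouts. Between genotypes no gene was called except Lgmn with array weights in the plus arrays, which made that count 1 in place of 0, and none in the difference of the responses. Low signals limit the size of differences, as given for Gpnmb. The cause of these shifts was not tested.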
